A study of Mus musculus with 12 samples.

Results

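The prethalamus, the region of the embryonic diencephalon just rostral to the thalamus, was measured on 1 array and set against 2 arrays of wild-type (WT) thalamus. These 3 arrays were chosen by their descriptions, out of 12 in the series and 6 on the same chip, and all genes of that chip were considered. The series concerns the homeobox gene Gbx2 in thalamic neurons, and the WT prethalamus array allows a look at how a neighbouring region differs from the thalamus. Tissue was microdissected from CD1 mouse embryos at E12.5, and its RNA was read on Illumina bead arrays, which report the brightness of beads carrying 1 probe as an intensity. The groups used here were WT CD1 prethalamus at E12.5 (1 array) and WT CD1 thalamus at E12.5 (replicates 1 and 2). The same chip held WT epithalamus (1 array) and Gbx2 knockout (KO) thalamus (replicates 1 and 2) of the same strain and age, which were set beside the comparison for levels and for counts by the same rule. The KO allele is not described further in the labels. Every array is labelled thalamus in the tissue field, so the regions outside the thalamus were identified from the descriptions alone. Nothing in the labels says whether an array holds 1 embryo or pooled embryos, or whether the WT replicates came from separate dissections. The source of the difference between the WT arrays, technical or biological, was not tested.

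The prethalamus lies rostral to the zona limitans, a narrow band of Sonic hedgehog-secreting cells that separates it from the thalamus. It gives rise to the thalamic reticular nucleus, the zona incerta and the ventral lateral geniculate nucleus, whose neurons are largely GABAergic, and Dlx homeobox genes are known to act in its development. The caudal thalamus forms glutamatergic relay neurons that express Gbx2 in the embryo, and a thin rostral strip of the thalamus beside the zona limitans forms GABAergic neurons.

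With 1 prethalamus array there is no test and no standard deviation, and every count below describes these arrays. A gene was counted as higher or lower where its log2 intensity on the prethalamus array differed by 1 or more, that is 2-fold, in the same direction from each WT thalamus array. It also had to be detected, at a detection p under 0.05, on the brighter side, which means the prethalamus array for higher genes and both WT arrays for lower genes. Where the dimmer side was not detected, its signal was raised to the lowest detected signal of that array, and the difference is then a bound. That floor was 5.34 on the prethalamus array, against 5.37 and 5.61 on WT thalamus replicates 1 and 2, on the log2 scale. The smaller of the differences from the 2 WT arrays is called the smaller difference below. Where the prethalamus or the WT side is given as at least N-fold brighter, the mean of the brighter side was set against the dimmer side at its floors.

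By this rule 99 of 9987 genes were higher on the prethalamus array (0.991%) and 88 were lower (0.881%). The median difference of all 9987 genes from the mean of both WT arrays was 0.01. Among the higher genes 31 lay beyond 4-fold and 4 beyond 16-fold, and among the lower genes 26 lay beyond 4-fold and 3 beyond 16-fold. The 2 genes just inside the rule for higher were Ttc28 at 1.01 and Sfrp1 at 1.03, and just outside it were Kcnf1 at 0.99 and Serpine2 at 0.98. For lower, Atrnl1 at -1.003 and Rai14 at -1.01 lay just inside, and Epha4 at -0.98 and Lrrn1 at -0.97 just outside. The counts rested on having both WT arrays: without WT thalamus replicate 2 they became 242 higher and 426 lower, and without WT thalamus replicate 1 they became 133 and 171. Among the 56 genes named by rule that were counted, Rora, Pax6, Lhx5, Tfap2d, Ebf2, Cdh8, Tcf7l2, Enpp2, Gli3, Epha5, Sfrp1 and Kcnd2 no longer passed without background correction. The last 4 of these also failed with the authors' deposited log2 values, and Tcf7l2 and Enpp2 at a detection p under 0.01. Since no gene was tested, a count near 1% of the genes gives only the background against which the gene groups below can be read.

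**Figure D1:**
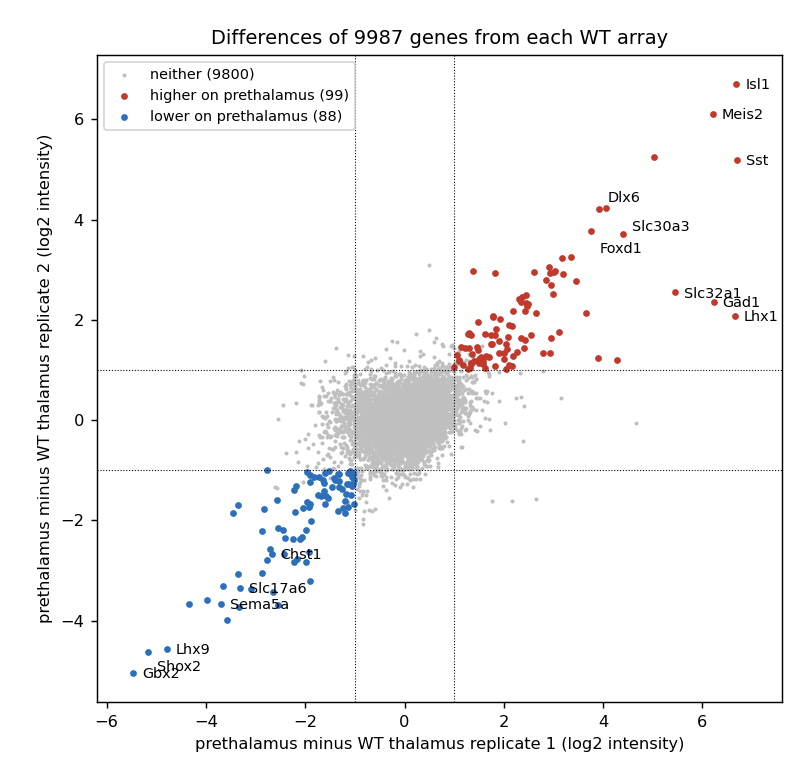
Each point is 1 of 9987 genes, with the difference of the prethalamus array from WT thalamus replicate 1 on the horizontal axis and from replicate 2 on the vertical axis (log2 intensity). Dotted lines mark 2-fold; 99 genes (red) were counted as higher and 88 (blue) as lower, and Gad1, Slc32a1 and Lhx1 lie far from the diagonal because the WT arrays differ for them.

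The promoters of 4 genes are printed because they stand for the contrast in the data, a transcription factor gene and a transmitter gene from each side. Isl1 and Gad1 were bright on the prethalamus array, and Gbx2 and Slc17a6 on the WT thalamus arrays. The sequences are from RefSeq, build GRCm38.p6, run 5' to 3' on the gene's strand and cover 250 bases before to 50 bases after the annotated start. Isl1 lies at chr13:116309639-116309938 (minus strand) and Gad1 at chr2:70561879-70562178 (plus strand). Gbx2 lies at chr1:89931127-89931426 (minus strand), and the first of 2 listed Slc17a6 starts at chr7:51621580-51621879 (plus strand). Capitals mark matches, on either strand, of 4 motifs. They are TAATTA (a core bound by many homeodomain factors), TGACAG (a core bound by Meis-type factors), CAGCTG (an E-box bound by bHLH factors) and TATAAA (the letters of the TATA box). Letters were matched anywhere in the window, so a TATAAA match need not be a TATA box.
Isl1: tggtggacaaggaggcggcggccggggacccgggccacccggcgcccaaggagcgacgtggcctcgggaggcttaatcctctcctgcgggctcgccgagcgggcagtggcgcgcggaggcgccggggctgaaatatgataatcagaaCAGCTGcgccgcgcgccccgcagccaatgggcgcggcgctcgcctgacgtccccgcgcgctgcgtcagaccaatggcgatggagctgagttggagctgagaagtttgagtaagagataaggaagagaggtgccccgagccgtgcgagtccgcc
Gad1: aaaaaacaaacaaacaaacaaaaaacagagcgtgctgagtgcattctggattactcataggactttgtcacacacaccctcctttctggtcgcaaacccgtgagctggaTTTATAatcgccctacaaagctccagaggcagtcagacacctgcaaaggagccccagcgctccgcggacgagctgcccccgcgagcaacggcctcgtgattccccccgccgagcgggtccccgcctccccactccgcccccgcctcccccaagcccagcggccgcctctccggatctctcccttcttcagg
Gbx2: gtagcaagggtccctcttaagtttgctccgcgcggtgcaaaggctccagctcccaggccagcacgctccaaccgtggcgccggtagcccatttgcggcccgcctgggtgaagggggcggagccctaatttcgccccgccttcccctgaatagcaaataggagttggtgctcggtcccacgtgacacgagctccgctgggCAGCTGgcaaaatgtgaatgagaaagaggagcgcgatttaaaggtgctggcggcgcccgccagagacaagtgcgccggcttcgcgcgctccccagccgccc
Slc17a6: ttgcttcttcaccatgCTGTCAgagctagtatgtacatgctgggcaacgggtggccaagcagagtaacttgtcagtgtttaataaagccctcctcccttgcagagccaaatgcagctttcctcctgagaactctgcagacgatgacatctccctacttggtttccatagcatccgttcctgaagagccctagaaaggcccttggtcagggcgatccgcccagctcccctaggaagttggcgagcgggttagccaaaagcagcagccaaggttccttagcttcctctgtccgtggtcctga
Isl1 and Gbx2 each held 1 match of CAGCTG, Gad1 held 1 of TATAAA and Slc17a6 held 1 of TGACAG at this start. The Gad1 match lay on the opposite strand, at -141 from the annotated start. No matches overlapped in these windows.

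A promoter was listed for 64 of the 99 higher genes, 65 of the 88 lower genes and 6601 of the 9987 genes compared. A gene was counted where any of its listed promoters held the motif. Of the genes with a listed promoter, TAATTA stood in 3.12% of the higher genes, 3.08% of the lower genes and 3.3% of all compared genes. TGACAG stood in 23.4%, 26.2% and 19.6% of the same sets, and CAGCTG in 17.2%, 16.9% and 17.1%. TATAAA stood in 20.3% of the higher genes, 12.3% of the lower genes and 9.12% of the compared genes, counted in the same way. Over all 27025 genes with a listed promoter the shares of the 4 motifs, in the order used here, were 6.12%, 21.6%, 18.3% and 15.7%. The windows are short, a match is not a binding site, and these shares were not tested.

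The label of the prethalamus array was set against its markers Isl1, Meis2, Dlx6 and Gad1, which were named with earlier results of these data known, so their levels are a description. Isl1, a LIM homeobox transcription factor gene, read 12.03 on the prethalamus array, against 5.35 and 5.32 on WT thalamus replicates 1 and 2, where it was not detected. Meis2, a TALE homeobox gene, read 11.42 on the prethalamus array, against 5.21 and 5.31 on the WT thalamus arrays. Both genes were thus bright on the prethalamus array and at background on both WT arrays, and the prethalamus was at least 92.9-fold brighter for Isl1 and at least 61.0-fold brighter for Meis2. Dlx6, a homeobox gene of GABAergic forebrain lineages, read 9.64 on the prethalamus array, against 5.73 and 5.42 on the WT thalamus arrays, a smaller difference of 3.91. Gad1, which encodes a GABA-synthesising enzyme, read 11.06 on the prethalamus array, against 4.84 and 8.70 on the WT thalamus arrays. Its difference was 6.23 from replicate 1 and 2.36 from replicate 2, so the prethalamus array lay above both, but by amounts that depended on the WT array. The epithalamus array read 10.15 for Gad1, within 2-fold of the prethalamus array, whereas Isl1, Meis2 and Dlx6 read 6.28, 5.90 and 5.12 there. The 4 markers were higher by the rule, and in bulk tissue fewer cells of a type and less RNA per cell cannot be told apart.

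Homeobox and other transcription factor genes known from the prethalamus and the subpallium, the ventral telencephalon that shares many of them, made up 15 of the 99 higher genes. Of 26 listed genes 20 were measured, meaning detected on the prethalamus array or on both WT arrays, and none of them was lower. Their median difference from the WT mean was 2.47, beside 0.01 over all genes. Because a gene can enter through its signal on the prethalamus array, and the list was drawn up with results known, the count is a description.

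Within the Dlx family, which drives GABAergic differentiation, Dlx2 read 7.88 on the prethalamus array, against 4.96 and 4.95 on the WT thalamus arrays. Dlx5 read 7.66 on the prethalamus array, against 4.75 and 4.61 on the WT thalamus arrays. By the probe used, both were detected on the prethalamus array and on none of the 5 other arrays of the chip, with the prethalamus at least 5.26-fold brighter for Dlx2 and at least 4.49-fold for Dlx5. A second Dlx5 probe gave a smaller difference of 0.11, with 5.47 on the prethalamus array, 5.43 on the epithalamus array and 5.36 and 4.92 on the WT thalamus arrays, so the Dlx5 difference rests on 1 probe. Foxd1, a forkhead gene of the rostral diencephalon, read 8.86 on the prethalamus array, against 5.10 and 5.09 on the WT thalamus arrays, at least 10.3-fold brighter in the prethalamus. Like the 2 Dlx genes, Foxd1 was not detected on any other array of the chip.

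A second set of factors was higher on the prethalamus array and detected on other arrays too. Meis1, a relative of Meis2, read 8.10 on the prethalamus array, against 6.27 and 5.17 on the WT thalamus arrays, and was higher still on the epithalamus array at 9.46. A second usable Meis1 probe did not pass the rule. Olig1, a bHLH gene, read 9.62 on the prethalamus array, against 7.19 and 7.44 on the WT thalamus arrays, while the epithalamus array was near background at 4.96. Esrrg, an orphan nuclear receptor gene, read 8.23 on the prethalamus array, against 5.88 on each WT thalamus array. Pax6, a paired-box gene of neural progenitors, read 7.74 on the prethalamus array, against 6.35 and 4.77 on the WT thalamus arrays. For these 4 genes the prethalamus array lay above both WT arrays, and the WT arrays themselves differed by more than 2-fold for Meis1 and Pax6. Zfhx3, Pbx3, Onecut2, Olig2 and Six3 were measured and passed the rule in neither direction. Zfhx3, a large zinc-finger homeobox gene, was bright everywhere, with 13.24 on the prethalamus array, against 12.79 and 12.75 on the WT thalamus arrays.

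**Figure D2:**
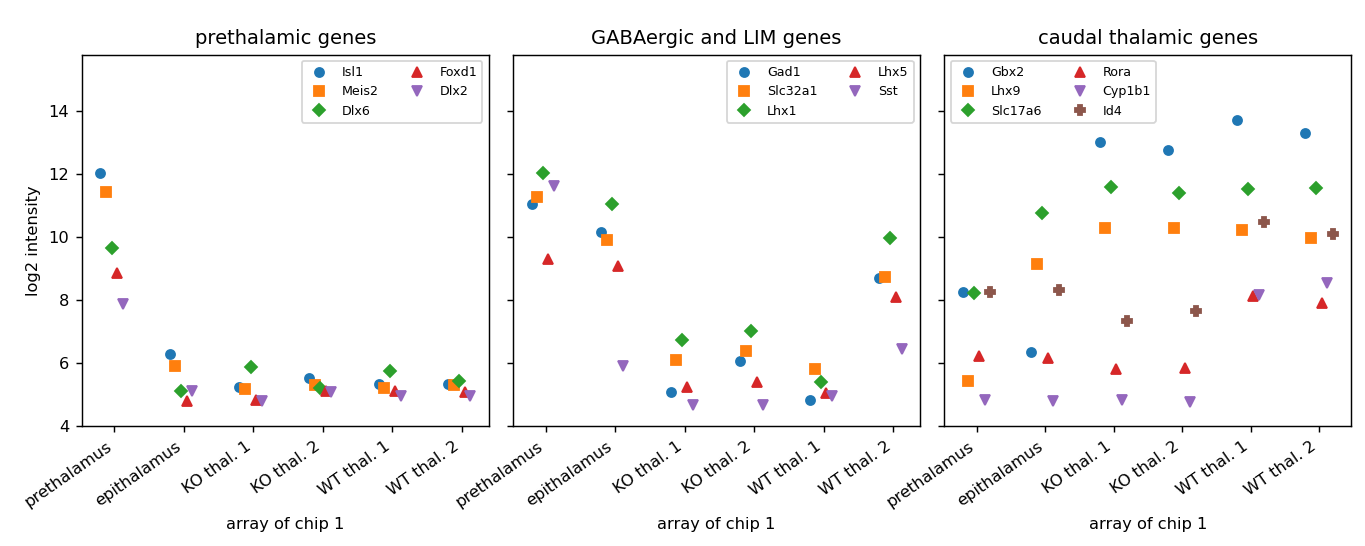
Log2 intensity of 16 genes on the 6 arrays of the chip, with 1 symbol per gene and 1 point per array. Isl1, Meis2, Dlx6, Foxd1 and Dlx2 (left) lie between 7.88 and 12.03 on the prethalamus array, against 4.95 to 5.73 on the WT arrays, Gad1, Slc32a1, Lhx1 and Lhx5 (middle) also differ between the WT arrays, and Gbx2, Lhx9 and Slc17a6 (right) are highest on the thalamus arrays of both genotypes.

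GABAergic transmitter genes were higher on the prethalamus array where they were called, with 3 of 6 measured genes higher and 0 lower and a median difference of 2.67. Slc32a1, which encodes the vesicular GABA transporter, read 11.27 on the prethalamus array, against 5.82 and 8.73 on the WT thalamus arrays. Sst, which encodes somatostatin, a peptide of many GABAergic neurons, read 11.63 on the prethalamus array, against 4.94 and 6.43 on the WT thalamus arrays, a smaller difference of 5.20. Sst was close to background on the epithalamus array at 5.91, whereas Slc32a1 read 9.90 there. Gad1 was covered by a second probe that passed the rule, with 10.12 on the prethalamus array, against 5.28 and 7.92 on the WT thalamus arrays. A further Gad1 probe was not detected. Abat, the GABA-degrading enzyme gene, and Slc6a11, a GABA transporter gene, had smaller differences of 0.70 and 0.09. None of the 7 measured GABA and glycine receptor subunit genes passed the rule, and their median difference was 0.20.

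The LIM homeobox genes Lhx1 and Lhx5, expressed in prethalamic and rostral thalamic GABAergic cells, were bright on the prethalamus array and uneven between the WT arrays. Lhx1 read 12.04 on the prethalamus array, against 5.39 and 9.96 on WT thalamus replicates 1 and 2. Lhx5 read 9.31 on the prethalamus array, against 5.03 and 8.11 on the WT thalamus arrays. Gsx1, a homeobox gene of ventral progenitors, read 8.70 on the prethalamus array, against 4.80 and 7.46 on the WT thalamus arrays. The epithalamus array read 11.05 for Lhx1, 9.09 for Lhx5 and 8.01 for Gsx1, each within 2-fold of the prethalamus array. For these genes WT replicate 1 was near background and replicate 2 was not, so the size of the difference rests on the choice of WT array while its direction does not.

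The same imbalance was seen in genes of the rostral thalamus, whose GABAergic neurons express them. Sox14 read 7.81 on the prethalamus array, against 5.16 and 9.39 on the WT thalamus arrays. Gata2 read 7.56 on the prethalamus array, against 5.39 and 9.16 on the WT thalamus arrays, and Gata3 read 6.94, against 5.18 and 8.56. Nkx2-2, a homeobox gene next to the zona limitans, read 9.36 on the prethalamus array, against 4.69 and 9.40 on the WT thalamus arrays. The prethalamus array thus lay between the WT arrays for these 4 genes, and none passed the rule. Tal2, another factor of GABAergic brainstem and diencephalic cells, read 7.54 on the prethalamus array, against 8.13 and 9.32 on the WT thalamus arrays. Of 13 measured genes of the rostral thalamus and the zona limitans, 4 were higher and 0 lower, with a median difference of 1.21. The mean log2 level of that list was 8.03 on the prethalamus array, against 5.61 and 7.65 on the WT thalamus arrays. The part of the rostral strip in the GABAergic and LIM differences was not tested.

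Across the 99 higher genes, WT replicate 2 exceeded replicate 1 by 2-fold or more in 13 and the reverse held in 2. Over all compared genes WT replicate 2 exceeded replicate 1 by that much in 224, or 2.24%. The 13 were 6430514I22Rik, Ddc, Epha5, Gad1, Gria1, Gsx1, Igfbp5, Lhx1, Lhx5, Reln, Sfrp1, Slc32a1 and Sst. Among the 88 lower genes the WT arrays differed by 2-fold or more in 6, with replicate 1 above in Atrnl1, Neurod1, Tcf7l2 and Tfap2d. Over all 9987 compared genes the WT arrays differed by that much in 698, a share close to that of the lower genes. Over the same genes the 2 KO thalamus arrays of the chip differed by that much in 43, and the reason was not tested.

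**Figure D3:**
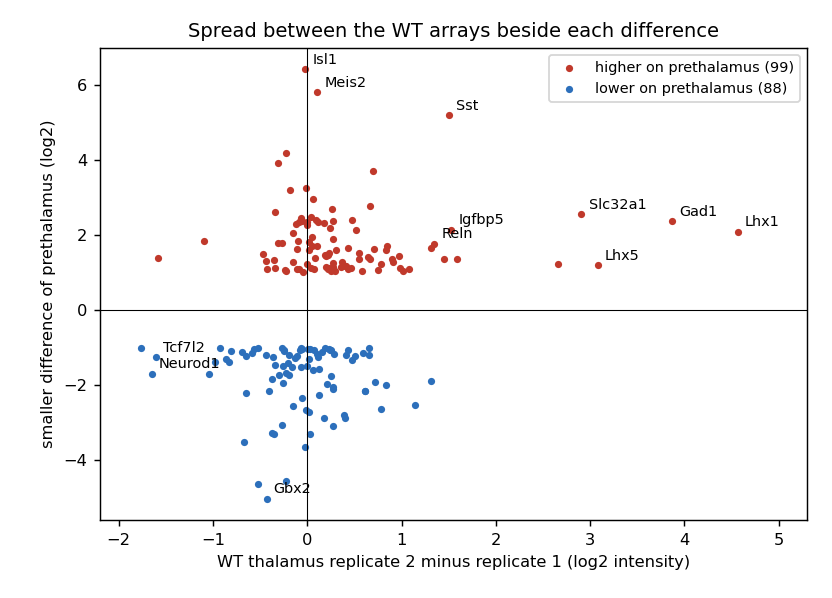
The 99 higher (red) and 88 lower (blue) genes, with the difference between WT thalamus replicates 2 and 1 on the horizontal axis and the smaller difference of the prethalamus array on the vertical axis (log2 intensity). Isl1, Meis2 and Gbx2 lie within 0.43 of 0 horizontally, while Gad1, Slc32a1, Lhx1 and Lhx5 lie between 2.91 and 4.56.

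On the second chip, which carries another probe set, 2 KO and 2 WT thalamus arrays were read only as unnormalized signals within that chip. Their median signals were 162.5 and 151.5 on the KO arrays and 170.8 and 159.9 on the WT arrays (replicates 3 and 4). Isl1 gave signals of 231.2 and 214.2 on the KO arrays, against 173.1 and 194.7 on the WT arrays, and Meis2 gave 180.4 and 147.9, against 151.7 and 160.7. Dlx6 gave 139.6 and 143.3 on the KO arrays, against 161.5 and 151.7 on the WT arrays. Isl1 lay above the array median on each of these 4 arrays, Dlx6 below it on each, and Meis2 above it on 2 of the 4. Gad1 gave 193.3 and 332.1 on the KO arrays, against 608.3 and 657.4 on the WT arrays, and Lhx1 gave 344.2 and 731.3, against 969.7 and 1201.0. Gad1 and Lhx1 thus lay above the array median on each of these 4 arrays, KO and WT. On the first chip WT replicate 2 gave unnormalized signals of 507.8 for Gad1 and 1039.5 for Lhx1, above its median of 137.9. WT replicate 1 gave 118.0 for Gad1, below its median of 125.5, and 143.7 for Lhx1, above it.

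Some genes of the zona limitans and the hypothalamus, which border the prethalamus, were also higher on its array. Shh, the signalling gene of the zona limitans and the hypothalamic floor, read 8.10 on the prethalamus array, against 5.07 and 5.12 on the WT thalamus arrays, at least 6.09-fold brighter in the prethalamus. Nkx2-1, a homeobox gene of the ventral hypothalamus, read 8.01 on the prethalamus array, against 4.67 and 4.76 on the WT thalamus arrays. Fezf1, a zinc-finger gene of the hypothalamus and rostral diencephalon, read 7.996 on the prethalamus array, against 4.80 and 5.07 on the WT thalamus arrays. By the probe used, the 3 genes were detected on no other array of the chip. A second Nkx2-1 probe read 4.55 on the prethalamus array, below its floor. Of 23 listed hypothalamic genes 8 were measured, of which 2, Nkx2-1 and Fezf1, were higher and 0 lower, with a median difference of 0.79. The mean level of the 8 was 6.33 on the prethalamus array, against 5.28 and 5.34 on the WT thalamus arrays. Th read 6.26 on the prethalamus array, against 4.96 and 4.94 on the WT thalamus arrays. Ghrh read 6.06, against 5.16 and 5.29, and Nkx2-4 read 5.55, against 4.78 and 4.81. They lay above both WT arrays without passing the rule, and Foxb1, Oxt and Trh lay below both without passing it. Rax, Sim1, Otp, Six6, Nr5a1 and Pomc were among the listed genes not detected on the prethalamus array. The part of hypothalamic tissue in these differences was not tested.

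Markers of the telencephalon and the eye gave no such pattern. Emx1 and Emx2, which mark the dorsal telencephalon, were not detected on the prethalamus array, and of 3 measured telencephalic genes 0 were higher and 1, Ebf1, was lower. Rax and Six6, which mark the optic vesicle, were likewise not detected on the prethalamus array, and 1 eye gene, Tbx5, was measured at 5.67 on the prethalamus array, against 5.37 and 5.31 on the WT thalamus arrays.

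Of 9 measured genes of the Shh pathway, Shh itself was the 1 higher gene on the prethalamus array and Gli3 the 1 lower gene. Gli3, which encodes a transcription factor that mainly represses Shh targets, read 7.04 on the prethalamus array, against 8.87 and 8.18 on the WT thalamus arrays. Ptch1, the Shh receptor gene and a target of the pathway, read 9.67 on the prethalamus array, against 8.01 and 9.31 on the WT thalamus arrays, and so exceeded both but replicate 2 by only 0.36. Hhip, another target, read 6.12 on the prethalamus array, against 4.80 and 4.81 on the WT thalamus arrays, but with the WT arrays raised to their floors the difference no longer reached 2-fold. The median difference of the 9 genes was 0.82.

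The 15 largest differences in this direction, with clones and gene models passed over, included genes outside these families. Slc30a3, a zinc transporter gene of synaptic vesicles, read 9.50 on the prethalamus array, against 5.10 and 5.79 on the WT thalamus arrays, and was bright on the epithalamus array too at 9.18. Rxfp3, a relaxin-family peptide receptor gene, read 8.80 on the prethalamus array, against 4.76 and 4.57 on the WT thalamus arrays, at least 9.95-fold brighter in the prethalamus. Slco3a1, an organic anion transporter gene, read 8.75 on the prethalamus array, against 5.73 and 5.80 on the WT thalamus arrays. All 3 had little spread between the WT arrays compared with the difference. Tshz2, a zinc-finger homeobox gene, read 8.79 on the prethalamus array, against 5.34 and 6.01 on the WT thalamus arrays. A probe set filed under Mrg1, a symbol that is a synonym of both Meis2 and Cited2 and that the deposited table also gives to the Meis2 record, read 9.81 on the prethalamus array, against 4.79 and 4.57 on the WT thalamus arrays. It may measure the same gene as the Meis2 probe, so the 99 genes may hold 1 gene under both names.

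By the probe used, 14 of the 99 higher genes were detected on the prethalamus array and on none of the 5 other arrays of the chip. They included Dlx2, Dlx5, Foxd1, Fezf1, Nkx2-1, Shh, Mrg1, Rxfp3, Parm1, Dcdc5, Ecel1 and C130079K02Rik. The prethalamus array exceeded every other array of the chip by 2-fold or more for 65 of the 99 genes. It lay below every other array by 2-fold or more, with the gene detected on all of those, for 31 of the 88 lower genes. Over all 9987 compared genes the same held for 76 and 32. The 99 and 88 genes were already chosen by their differences from the WT arrays, which are among the 5. Detection on the prethalamus array alone was not counted over all compared genes.

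**Figure D4:**
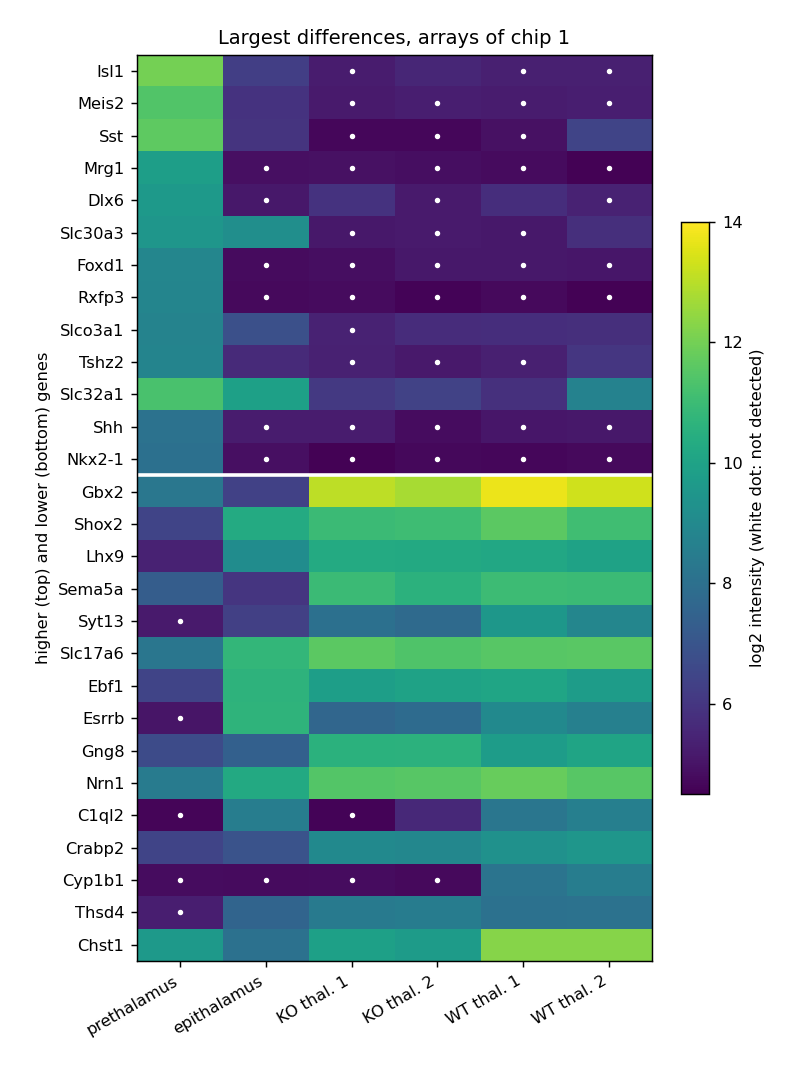
Log2 intensity (colour) of genes among the 15 with the largest differences in each direction on the 6 arrays of the chip, with white dots where a gene was not detected. Isl1, Meis2 and Foxd1 are bright on the prethalamus array, Slc30a3 and Slc32a1 also on the epithalamus array, and Gbx2, Sema5a and Chst1 are lower on the prethalamus and epithalamus arrays than on the WT thalamus arrays.

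Among the lower genes, Gbx2 itself had the largest difference. Gbx2 read 8.27 on the prethalamus array, where it was detected, against 13.73 and 13.30 on the WT thalamus arrays, 32.8-fold lower than the nearer WT array. The WT arrays differed by 0.43, far less than the difference of 5.04. Gbx2 read 13.04 and 12.77 on the KO thalamus arrays of the same chip, below both WT arrays by less than 2-fold, and 6.35 on the epithalamus array. On the second chip its unnormalized signals were 12640.5 and 14388.7 on the KO arrays, against 66719.6 and 57517.7 on the WT arrays. Neither the KO allele nor the position of the Gbx2 probes relative to it is given, so the KO levels do not check the labels.

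Of 15 measured genes of the postmitotic caudal thalamus 7 were lower on the prethalamus array and 0 higher, with a median difference of -1.17. Lhx9, a LIM homeobox gene of thalamic neurons, read 5.42 on the prethalamus array, against 10.21 and 9.98 on the WT thalamus arrays. Rora, a nuclear receptor gene, read 6.22 on the prethalamus array, against 8.13 and 7.90 on the WT thalamus arrays. Id4, an inhibitor of bHLH factors, read 8.26 on the prethalamus array, against 10.47 and 10.10 on the WT thalamus arrays. Cyp1b1, a cytochrome P450 gene that can make retinoic acid, was not detected on the prethalamus array at 4.81, against 8.15 and 8.54 on the WT thalamus arrays, at least 8.04-fold brighter in WT thalamus. The smaller differences of these 4 genes ran from -4.56 for Lhx9 to -1.68 for Rora, so the prethalamus array lay below both WT arrays in each. Rora, Id4 and Cyp1b1 were also low on the KO thalamus arrays, at 5.80 and 5.84, 7.35 and 7.65, and 4.81 and 4.75, whereas Lhx9 read 10.29 on each KO array. These values share the WT arrays with the prethalamus comparison.

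Tcf7l2 and Ntng1 completed the called caudal thalamic genes, and their probes disagreed. Tcf7l2, a Wnt effector and a thalamic transcription factor, was not detected on the prethalamus array at 4.74, against 8.20 and 6.59 on the WT thalamus arrays, and a second probe gave -0.91. Ntng1, which encodes the axonal protein netrin-G1, read 7.88 on the prethalamus array, against 9.20 and 9.21 on the WT thalamus arrays, and a second probe gave -0.22. Prox1, Lef1, Zic1, Zic4, Sox2, Etv1, Calb2 and Foxp2 passed the rule in neither direction. Prox1, a homeobox gene, read 8.36 on the prethalamus array, against 7.77 and 7.68 on the WT thalamus arrays. Foxp2 and Calb2 were near background on the prethalamus array at 5.15 and 5.01, against 6.16 and 6.30 for Foxp2 and 5.86 and 6.51 for Calb2 on the WT thalamus arrays.

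Genes of the glutamatergic programme were lower, 3 of 4 measured, with 0 higher and a median difference of -2.54. Slc17a6, the vesicular glutamate transporter gene of the diencephalon, read 8.22 on the prethalamus array, against 11.53 and 11.56 on the WT thalamus arrays, 9.95-fold lower than the nearer WT array. Neurog2, a proneural bHLH gene of glutamatergic progenitors, read 8.24 on the prethalamus array, against 11.11 and 10.46 on the WT thalamus arrays. Neurod1, a bHLH gene of differentiating neurons, read 6.38 on the prethalamus array, against 9.73 and 8.08 on the WT thalamus arrays. Slc17a6 and Neurog2 were still detected on the prethalamus array, so their signal there was reduced and not absent. Nhlh2, another bHLH gene, read 5.39 on the prethalamus array, against 6.75 and 5.71 on the WT thalamus arrays, and did not pass.

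**Figure D5:**
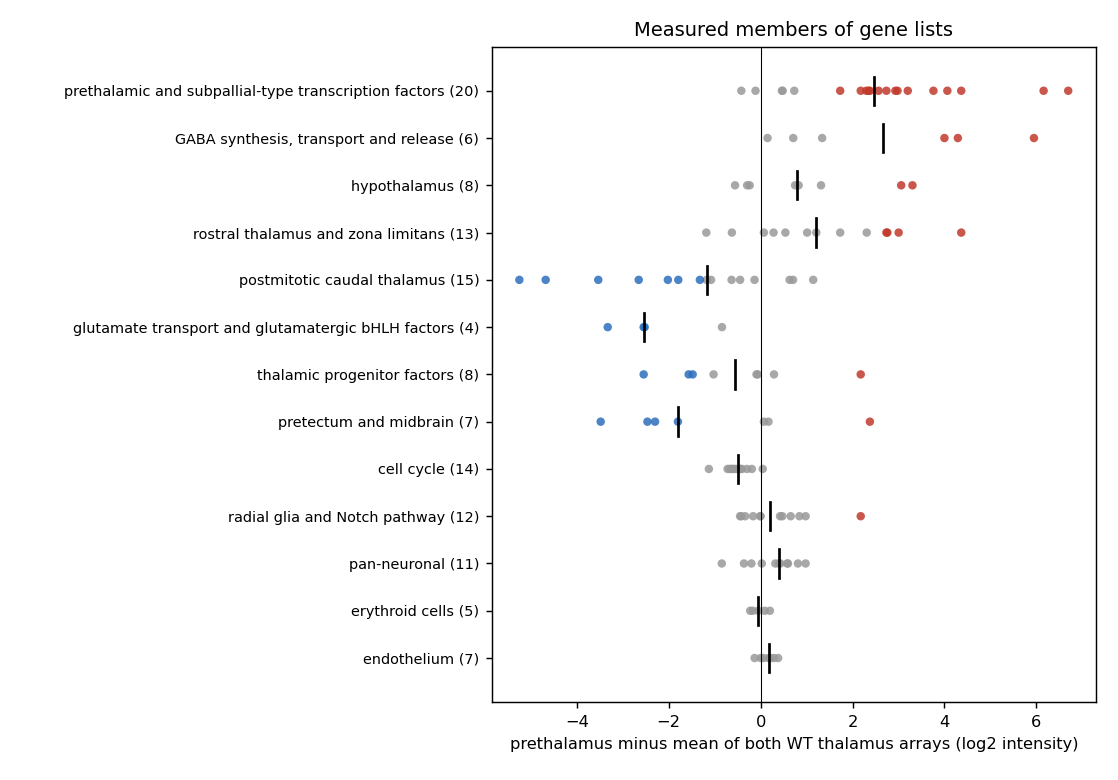
Differences of the prethalamus array from the mean of both WT thalamus arrays (log2 intensity) for measured members of 13 gene lists, with the number measured in brackets, 1 point per gene and a bar at the median. Red and blue points were higher and lower by the rule; the medians run from 2.67 for GABA genes to -2.54 for glutamatergic genes.

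Thalamic progenitor factors differed in both directions, with 3 of 8 measured genes lower and 1, Pax6, higher. Dbx1, a homeobox gene of thalamic progenitors, read 8.52 on the prethalamus array, against 10.42 and 9.76 on the WT thalamus arrays. Gli3 and Neurog2 were the other lower members. Olig3, a bHLH gene of thalamic progenitors, read 8.17 on the prethalamus array, against 9.64 and 8.75 on the WT thalamus arrays, and Otx2, a homeobox gene of the forebrain and midbrain, read 10.58, against 10.26 and 10.32. These 2 did not pass, Otx2 with a smaller difference of 0.26.

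The Ebf genes, helix-loop-helix factors of differentiating neurons that were listed with the pretectum and midbrain, were low on the prethalamus array. Ebf1 read 6.43 on the prethalamus array, against 10.09 and 9.74 on the WT thalamus arrays. Ebf3 read 8.49 on the prethalamus array, against 10.65 and 11.27 on the WT thalamus arrays, and Ebf2 read 5.16, against 7.13 and 6.80. The epithalamus array was higher for the 3 genes, at 10.66, 12.69 and 8.80 for Ebf1, Ebf3 and Ebf2. Tfap2d, a transcription factor gene of the dorsal midbrain, read 5.28 on the prethalamus array, against 8.10 and 7.05 on the WT thalamus arrays. In the list of 7 measured genes 4 were lower and 1, Meis1, higher, with a median difference of -1.80.

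Other large lower differences belonged to genes with varied roles. Shox2, a homeobox gene, read 6.45 on the prethalamus array, against 11.61 and 11.09 on the WT thalamus arrays, and a second, dimmer probe gave -0.85 and did not pass. Sema5a, an axon guidance gene, read 7.32 on the prethalamus array, against 11.01 and 10.98 on the WT thalamus arrays, and was low on the epithalamus array as well at 5.95. Syt13, a synaptotagmin gene, was not detected on the prethalamus array at 5.17, against 9.52 and 8.85 on the WT thalamus arrays, at least 14.4-fold brighter in WT thalamus. By the probe used, the difference of each of these genes exceeded 3 on the log2 scale, while the WT arrays were within 0.67 of each other. Esrrb, an orphan nuclear receptor gene, was not detected on the prethalamus array at 5.02, against 8.99 and 8.62 on the WT thalamus arrays, and it was brightest on the epithalamus array at 10.69. Nrn1, which encodes neuritin, a neurite growth protein, read 8.44 on the prethalamus array, against 11.78 and 11.51 on the WT thalamus arrays. C1ql2, a secreted synaptic organiser gene, was not detected on the prethalamus array at 4.64, against 8.21 and 8.62 on the WT thalamus arrays. Thsd4, an extracellular matrix gene, was not detected on the prethalamus array at 5.28, against 8.05 and 8.07 on the WT thalamus arrays.

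Chst1, a sulfotransferase gene that modifies keratan sulfate chains, read 9.61 on the prethalamus array, against 12.29 and 12.28 on the WT thalamus arrays. Chst8, Hs6st2 and Glce, which also act on glycan chains and were picked after their values were seen, had smaller differences of -1.74, -1.99 and -1.07. Retinoid handling genes were lower in 2 of 4 measured and higher in 0, with a median of -1.92. Crabp2, a cellular retinoic acid binding protein gene, read 6.45 on the prethalamus array, against 9.32 and 9.50 on the WT thalamus arrays, and Cyp1b1 was the other. Crabp1 read 4.92 on the prethalamus array, against 5.61 and 5.98 on the WT thalamus arrays, near background on all 3.

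Habenular genes, from the epithalamus, mostly stayed inside 2-fold, with 1 of 7 measured lower, 0 higher and a median of -0.13. Gng8, a G protein subunit gene listed there, read 6.68 on the prethalamus array, against 9.77 and 10.04 on the WT thalamus arrays, but it was dimmer on the epithalamus array, at 7.42, than on WT thalamus. Of 5 measured genes of the epithalamic midline none passed, and the median was 0.29.

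Each of 4 lists of axon guidance and adhesion genes held 1 or 2 genes that passed the rule. Of 13 measured Robo, Slit and netrin genes 0 were higher and 2, Ntng1 and Ntng2, lower. Ntng2, the netrin-G2 gene, read 5.36 on the prethalamus array, against 7.91 and 9.06 on the WT thalamus arrays. That probe was filed under a clone name, and the probe filed as Ntng2 was not usable. Of 12 semaphorin and plexin genes only Sema5a passed. Among 12 Eph receptor and ephrin genes Epha5 was higher, with 8.79 on the prethalamus array, against 6.62 and 7.70 on the WT thalamus arrays. Another usable Epha5 probe passed at 1.77, and a further one, at 0.92, did not. Of 13 cadherins and protocadherins 2 were higher and 0 lower: Pcdh19 read 7.95 on the prethalamus array, against 5.50 and 5.60 on the WT thalamus arrays, and Cdh8 read 8.73, against 7.42 and 6.99. The medians of these 4 lists were -0.33, 0.04, -0.21 and 0.31.

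Other signalling lists held 0 to 2 called genes each. Of 13 Wnt pathway genes Sfrp1, a secreted Wnt modulator, was higher at 1.03 and Tcf7l2 lower, and of 6 measured BMP and Id genes only Id4 was lower. None of the 6 measured FGF pathway genes passed. Fgf15, a growth factor gene of forebrain progenitors, read 8.13 on the prethalamus array, against 7.64 and 5.03 on the WT thalamus arrays. The medians were -0.13 for Wnt, -0.21 for BMP and Id and 0.16 for FGF genes. Of 7 measured neuropeptide genes and their receptors only Sst was higher.

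Channels and glutamate receptors showed some calls. Of 10 voltage-gated channel genes Kcnd2, a potassium channel gene, read 7.38 on the prethalamus array, against 5.73 and 6.10 on the WT thalamus arrays. Cacna2d1, an auxiliary calcium channel subunit gene, read 7.52 on the prethalamus array, against 10.07 and 9.67 on the WT thalamus arrays. The glutamate receptor genes Gria1, Gria3 and Grm5 were higher, with smaller differences of 1.35, 1.12 and 1.03, and Grm8 was lower at -1.49. These 4 were picked after their values were seen, and further usable probes of Gria3 did not pass, at 0.33 to 0.66. Gria1 read 9.43 on the prethalamus array, against 6.49 and 8.08 on the WT thalamus arrays.

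Reln, which encodes the secreted protein reelin, and Igfbp5, an insulin-like growth factor binding protein gene, were picked after their values were seen as bright genes among the 99. Reln read 12.45 on the prethalamus array, against 9.35 and 10.69 on the WT thalamus arrays. Igfbp5 read 12.00 on the prethalamus array, against 8.34 and 9.86 on the WT thalamus arrays. Both lay above either WT array, and the WT arrays differed by 1.35 and 1.52.

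In the lists for proliferation, glial progenitors and neuronal maturity 1 gene passed the rule. None of 14 measured cell cycle genes passed, and their mean log2 level was 8.71 on the prethalamus array, against 9.71 and 8.73 on the WT thalamus arrays, so the prethalamus array was close to replicate 2 and lay below replicate 1. Mki67, a proliferation marker, read 9.09 on the prethalamus array, against 10.03 and 9.06 on the WT thalamus arrays. Of 12 radial glia and Notch genes only Pax6 was higher, with a median of 0.21, and of 11 pan-neuronal genes none passed, with a median of 0.39. Dcx, a marker of young neurons, read 12.43 on the prethalamus array, against 11.82 and 11.86 on the WT thalamus arrays.

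Marker genes of non-neural cells passed the rule in 1 case. None of the measured genes of erythroid cells (5), endothelium (7), meninges (4) and microglia (2) passed, and the medians were -0.05, 0.17, 0.17 and 0.38. Hba-a1, an alpha globin gene, read 13.55 on the prethalamus array, against 13.21 and 13.49 on the WT thalamus arrays. The choroid plexus list gave Enpp2 as lower, with 5.15 on the prethalamus array, against 7.71 and 6.73 on the WT thalamus arrays, while Ttr, which defines that tissue, was detected on neither the prethalamus array nor the WT thalamus arrays. None of 3 measured stress genes and 2 Y-linked genes passed, with medians of 0.20 and -0.02. The Y-linked Eif2s3y read 9.02 on the prethalamus array, against 9.19 and 8.91 on the WT thalamus arrays.

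The called genes were also set beside the epithalamus array, another region outside the thalamus. Of the 99 higher genes 69 were also above the epithalamus array by 2-fold or more, and 2, Meis1 and Smoc1, were below it by that much. Of the 88 lower genes 48 were below the epithalamus array by 2-fold or more, and 4, Gbx2, Chst1, Ntng1 and Sema5a, were above it. Differences from the epithalamus array were not counted over all compared genes. The 99 and 88 genes were already chosen for high or low signal on the prethalamus array, so these counts are a description. By the same rule against the same WT arrays, the epithalamus array had 82 higher (0.836%) and 64 lower genes (0.652%) of 9814. KO thalamus replicate 1 had 30 higher (0.324%) and 72 lower (0.778%) of 9255, and replicate 2 had 31 (0.324%) and 57 (0.596%) of 9565. All these counts share the 2 WT arrays, so they are given side by side only.

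Detection limits what these arrays can show for dim genes. Between 30.7% and 36.0% of probes were detected on the 3 arrays, with 36.0% on the prethalamus array, against 35.3% and 30.7% on the WT thalamus arrays. Of the higher genes 20, and of the lower genes 16, rest on a bound because the dimmer side was not detected. Among higher genes with several usable probes, 16 of 33 had another probe with the same call, and among lower genes 10 of 19 did. Dlx1, Gad2, Sp8 and Sp9 were not analysed here.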

How the data were processed

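RNA of prethalamus (1 array), epithalamus (1), KO thalamus (2) and WT thalamus (2) was measured on 1 Illumina chip, and groups were taken from the sample descriptions. The deposited unnormalized table gives an intensity per probe on a linear scale, without normalization per the file headers. Beside it stands a deposited detection fraction, near 1 for bright probes, and 1 minus that fraction was used as the detection p. The deposited normalized table holds log2 values and served as an alternative; how the authors made them is not stated. Per the submitters' processing notes, BeadStudio, GenomeStudio and lumi were used, with no roles given.

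The chip holds 46147 probes. The deposited joined table names 31459 probes, of which 31448 were found by their signals. The other 14699 probes of the chip had no name. Names were updated through RefSeq GRCm38.p6 (names and promoters only): an accession named 19533 probes, the symbol in the file was current for 2780 and an older synonym for 2318, and 6817 stayed as filed. They stand for 23397 genes. With limma 3.58.1 (R 4.3.3), the function neqc was run over the 6 arrays, which corrects background by normexp from the detection p, adds 16, applies quantile normalization and takes log2. For each gene the usable probe that was brightest on average over the 3 arrays was taken. No depth applies to arrays: their number limits the precision, and maximum signals were 45036.0 on the prethalamus array, against 51355.8 and 40025.0 on the WT arrays. The normalization and the 2-fold rule, without bounds, were run on simulated data with a fixed spread. Only bright, detected probes were changed there, by well beyond 2-fold. The rule found the changed probes and also passed some unchanged ones. That run did not cover changes in dim genes, bounds or changes near 2-fold.

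Named genes were the markers, Gbx2, the 15 largest differences in each direction without clones and gene models, and up to 5 called members of each of 35 lists, or otherwise the 2 with the largest differences. Further members are named to describe their lists, and some genes that the counts include are not reported here. The members, lists and rule were chosen with earlier results of these data known. Alternatives covered scaling, background correction, the deposited values, the filter, probe choice, the threshold and each WT array left out.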

Additional observations from a re-analysis of the deposited data

Results flagged for a closer look

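Probes that carry no gene name here also passed the rule on the prethalamus array, and stand out because no other count covers them. Of 4601 such probes that were usable, 58 were higher (1.26%) and 39 were lower. Of the 58 higher ones 14 were not detected on either WT thalamus array, and the largest smaller difference was 6.94 on the log2 scale. They were not matched to genes.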

How the results depend on the processing

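Among the 56 named genes that passed the rule, none changed direction under any setting tried. Taking the mean of both WT arrays, leaving 1 out or dropping the filter and bounds loosens the rule on the same values. A call kept there therefore carries little weight, and asking for 1.5 can drop a gene but not turn its direction. Of the settings that moved a count by more than 1.5 times, leaving out the background correction gave 49 higher and 41 lower genes, and asking for a difference of 1.5 gave 51 and 42. The deposited log2 values gave 58 lower genes (and 76 higher), and comparing with the mean of both WT arrays gave 141 lower (and 134 higher). Leaving out 1 WT array gave between 133 and 242 higher and between 171 and 426 lower genes, the larger counts without WT thalamus replicate 2. The gain without 1 array, the gain with the mean of both arrays and the loss at 1.5 follow from the construction. The cause of the other shifts was not tested. The other settings gave 81 to 118 higher and 80 to 95 lower genes. Of the 56 named genes 44 kept their call without background correction and 52 with the deposited values. Lost without the correction were Rora, Pax6, Lhx5, Tfap2d, Ebf2, Cdh8, Tcf7l2 and Enpp2, and lost under both settings were Gli3, Epha5, Sfrp1 and Kcnd2. Under scaling to the 75th percentile 91 of the 99 higher and 79 of the 88 lower genes were shared. No paired analysis was possible because the prethalamus has 1 array and no test was made. The main limits are that 1 array has no error of its own, that the WT arrays differ by 2-fold or more in 698 genes, and that signal over background bounds the fold of genes not detected on the dimmer side.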
